A study of Mus musculus with 4 samples.

Results

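The genes of glycolysis, of lactate handling and of the pentose phosphate pathway were followed in mouse regulatory T cells, as 36 genes chosen by symbol among the 50600 genes of each count table. They comprised glucose and lactate transporters with a transporter chaperone, every enzyme from hexokinase to lactate dehydrogenase, regulators of phosphofructokinase, a glycerol phosphate shuttle enzyme and 7 pentose phosphate enzymes, and all 36 were found. The data are 4 RNA sequencing libraries of primary cells from strain C57BL/6NJ, numbered as biological replicates of a single group, so the comparisons are between genes and between libraries, with no treatment, genotype or time to contrast. The biosample records differ between libraries, the donor record is the same for all 4, age is unknown and sex was not collected. Since no label names separate animals or cultures, p-values measure only the spread between these libraries. The labels do not say how much of that spread is technical, and Xist RNA, given below, set replicates 1 and 2 apart from replicates 3 and 4. A CD4 T cell differentiation protocol is linked to the samples, and the sample names in the file headers read activated, sorted and 72 h. The assay is titled total RNA, but the library protocol it links to carries PolyA+ in its name.

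Glycolysis splits glucose into pyruvate in the cytosol and yields ATP without oxygen. Lactate dehydrogenase turns pyruvate into lactate, which regenerates the NAD+ that glycolysis needs, and monocarboxylate transporters carry lactate out. The pentose phosphate pathway branches off at glucose 6-phosphate and makes NADPH and ribose phosphate. Activated T cells are known for rapid glucose uptake and lactate release, and in regulatory T cells Foxp3 is known to restrain glycolysis and favour oxidative metabolism. Many steps can be run by isoenzymes, products of different genes that catalyse the same reaction and are used to different extents by muscle, liver, brain and blood cells. Several of these genes are textbook targets of the hypoxia factor HIF-1 and of MYC.

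The libraries held between 32648138 and 94983494 counted read pairs. Their identity as regulatory T cells was checked with markers: all 7 regulatory T cell markers and all 4 general T cell markers were at 1 TPM (counts corrected for gene length and scaled to the library) or more in every library, and Foxp3, the transcription factor that defines the lineage, ranged from 433 to 495 TPM. None of the 3 B cell, 3 neutrophil, 4 erythroid, 2 natural killer or 3 stromal markers reached that level in every library, whereas Cd8b1, a CD8 coreceptor chain, did at 14.4 ± 2.09 TPM (SD, n = 4) with Cd8a at 0.332 TPM, and so did the macrophage gene Adgre1 at 1.75 ± 0.721 TPM. Replicate 1 stood apart in RNA quality: Gm42418, a locus that collects ribosomal RNA reads, was at 11891, 4335, 2980 and 1555 TPM in replicates 1 to 4, and the nuclear RNA Malat1 at 131, 55.2, 44.1 and 42.5 TPM. Xist, which is transcribed from the inactive X chromosome, was at 312 and 331 TPM in replicates 1 and 2 but at 0.539 and 2.38 TPM in replicates 3 and 4, although all 4 name the same donor record; whether the cells came from different animals was not tested. In bulk RNA, fewer cells expressing a gene and less of its RNA per cell cannot be told apart.

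Nearly the whole pathway was expressed. Of the 36 genes, 35 were at 1 TPM or more in every library, or 97.2%, against 23.9% of all 50600 genes. The exception was Hk3, a hexokinase of myeloid cells, with 13, 17, 10 and 9 counts in replicates 1 to 4, or 0.0920 to 0.244 TPM. Together the 36 genes took 1.88, 1.93, 2.06 and 1.93% of all TPM in replicates 1 to 4, a mean of 1.95% ± 0.0788 (SD, n = 4). The 7 pentose phosphate genes accounted for 0.116% ± 0.00261 of all TPM, so the glycolytic and lactate genes held most of the share. TPM here divides by the summed length of all annotated exons of a gene, as deposited. Dividing instead by the length of the principal transcript, a choice made after seeing the data raised the genes' share to 2.73%. The deposited length of Aldoa, for example, is 3762 bases and that of its principal transcript 1511 bases.

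**Figure D1:**
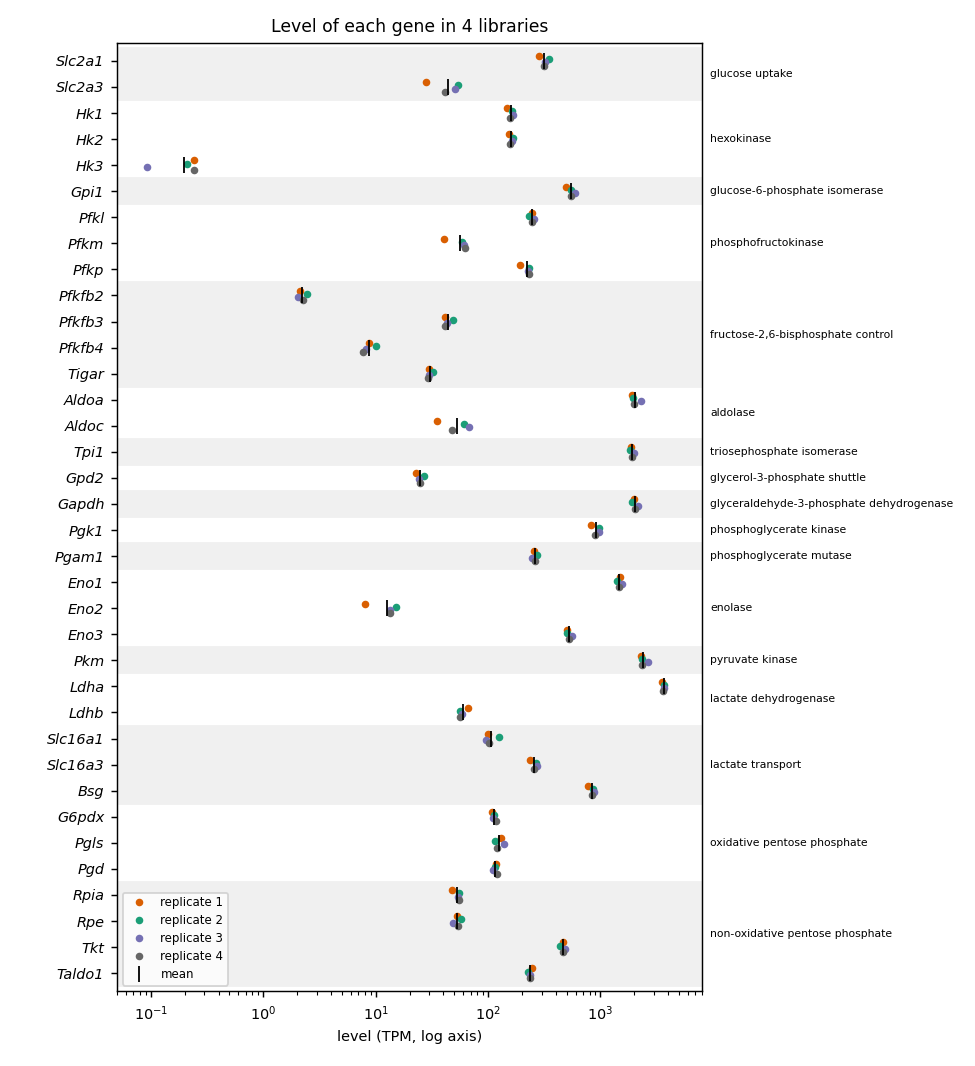
Level of each of the 36 genes in TPM (log axis), 1 point per library, coloured by replicate, with a black bar at the mean, grouped by step of the pathway. Levels ran from 0.198 TPM for Hk3 to 3637 TPM for Ldha, and replicate 1 lies to the left of the other libraries for Slc2a3, Pfkm, Aldoc and Eno2.

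Of the pair of glucose transporter genes followed, Slc2a1, the transporter GLUT1, had more RNA than Slc2a3, the high-affinity transporter GLUT3. Slc2a1 was at 286, 346, 324 and 312 TPM in replicates 1 to 4 and Slc2a3 at 28.3, 54.1, 50.5 and 41.5 TPM. All 4 libraries placed Slc2a1 higher, by a mean of 2.87 ± 0.30 on the log2(TPM + 1) scale (SD, n = 4), and the mean levels differed 7.26-fold. Slc2a1 made up 88.1% ± 2.12 of the pair's summed TPM, or 81.3% with principal transcript lengths. Isoenzyme differences within libraries were put to a sign-flip permutation test, exact and two-sided, in which 4 libraries allow a p no smaller than 2 of 16 sign assignments. In 15 of the 16 pairs compared, all 4 libraries had the same sign, which gave that smallest p and an exact permutation p of 0.133 after Benjamini-Hochberg adjustment. No pair could pass a threshold of 0.05, so the sizes are given against the spread between libraries.

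Hexokinase traps glucose in the cell as glucose 6-phosphate. Hk1, the broadly expressed form, was at 147, 163, 166 and 158 TPM, and Hk2, the inducible form of muscle and of activated cells, at 154, 166, 164 and 157 TPM. Both genes lay in the same narrow band, with Hk2 slightly higher in replicates 1 and 2 and Hk1 in replicates 3 and 4. The mean difference, Hk1 minus Hk2, was -0.02 ± 0.04 log2 units, not distinguishable from 0 in the exact sign-flip permutation test (p = 0.5). The deposited length of Hk1 (chr10:62268855-62379908, mm10, minus strand) is 8532 bases and that of its principal transcript 3851 bases, whereas Hk2 (chr6:82725025-82774454, minus strand) has 5969 and 5513 bases. With principal transcript lengths Hk1 was at 244 TPM and Hk2 at 120 TPM, and Hk1 was higher in all 4 libraries, by 1.01 ± 0.04 log2 units, with the smallest p the exact test allows. The order of the pair thus depended on the length used, while the SD of the difference over libraries was 0.04 log2 units under either.

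Gpi1, the isomerase that makes fructose 6-phosphate, was at 498, 543, 589 and 552 TPM. Phosphofructokinase, the main control point of glycolysis, was expressed as all 3 of its genes. The liver-type Pfkl was at 247, 231, 254 and 246 TPM, the platelet-type Pfkp at 192, 230, 225 and 233 TPM and the muscle-type Pfkm at 40.6, 58.8, 60.6 and 62.9 TPM. Pfkl held 47.1% ± 3.13, Pfkp 42.3% ± 1.81 and Pfkm 10.7% ± 1.46 of the family's TPM. Pfkm was the lowest of the family in every library, 2.13 ± 0.30 log2 units below Pfkl. The order of Pfkl and Pfkp again turned on length: Pfkl was higher by 0.15 ± 0.15 log2 units in the deposited lengths, and with principal transcript lengths the difference was -0.19 ± 0.15 (exact sign-flip p = 0.25). In replicate 1 Pfkl took its highest share, 51.5%, and Pfkm its lowest, 8.48%.

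Fructose 2,6-bisphosphate, the strongest activator of phosphofructokinase, is made and removed by the bifunctional PFKFB enzymes. Pfkfb3, the form with the highest kinase activity, was at 41.5, 48.7, 43.1 and 41.3 TPM and made up 80.0% ± 0.699 of the summed TPM of Pfkfb2, Pfkfb3 and Pfkfb4. Pfkfb1, the fourth gene of the family and not among the 36, was at 8.40 ± 1.38 TPM and is not in that sum. With principal transcript lengths Pfkfb1 was at 13.5 TPM, above Pfkfb4 at 8.45 TPM. Of the genes summed, Pfkfb4 came after Pfkfb3 at 8.71 ± 0.958 TPM, and Pfkfb2 was at 2.11, 2.45, 2.03 and 2.26 TPM. Pfkfb2 shares 17.4% of its exon bases with another gene on the same strand, where reads were not counted. The order Pfkfb3, Pfkfb4, Pfkfb2 held in all 4 libraries, with Pfkfb3 2.20 ± 0.07 log2 units above Pfkfb4 and Pfkfb4 1.59 ± 0.11 above Pfkfb2 on the same log2(TPM + 1) scale. Tigar, a phosphatase that lowers fructose 2,6-bisphosphate, was at 30.0, 32.2, 29.6 and 29.5 TPM, below Pfkfb3 in every library.

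From aldolase to lactate dehydrogenase, every reaction except phosphoglycerate mutase was above glucose transport and each of the upper reactions in summed TPM; with principal transcript lengths Pgk1, at 778 TPM, was also below Gpi1, at 847 TPM. Aldoa, the muscle and ubiquitous aldolase that splits the hexose, was at 1904, 1949, 2301 and 1988 TPM. Aldoc, the brain form, was at 35.4, 60.6, 67.5 and 48.1 TPM, and Aldoa held 97.5% ± 0.537 of the pair's summed TPM. Tpi1, which interconverts the triose phosphates, was at 1814 to 1992 TPM, and Gapdh, which makes the NADH of glycolysis, at 1897 to 2144 TPM. Gpd2, the mitochondrial enzyme that passes glycerol phosphate electrons to the respiratory chain, was at only 22.9 to 26.7 TPM. Pgk1, the kinase that returns ATP, was at 827, 969, 964 and 887 TPM and Pgam1, the mutase after it, at 256, 270, 246 and 264 TPM. Pgam1 was thus the lowest single gene carrying its reaction between aldolase and lactate dehydrogenase, on the scale of TPM. Sequence shared with other genes limits the levels of Pgk1, Pgam1, Eno1 and Gapdh, of which 53.9, 36.2, 26.0 and 24.7% of the 50-base exon stretches also occur in other genes, such as the pseudogene Pgam1-ps2 for Pgam1, and reads mapping to several places were not counted. Pgk1 and G6pdx lie on the X chromosome, and for both the range of levels in replicates 1 and 2, where Xist was high, overlapped that in replicates 3 and 4.

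RNA for enolase, which makes phosphoenolpyruvate, came mainly from Eno1 and Eno3. Eno1, the ubiquitous form, was at 1480, 1390, 1566 and 1464 TPM. Eno3, the muscle form (chr11:70657202-70662513, plus strand), was at 507, 507, 554 and 528 TPM, or 26.1% ± 0.480 of the family, while Eno2, the neuronal form, was at 8.05, 15.1, 13.4 and 13.5 TPM. Eno1 was above Eno3 in all 4 libraries by 1.49 ± 0.04 log2 units. The share of Eno3 varied little over libraries but depended on the length used, from 26.1% with deposited lengths to 12.9% with principal transcript lengths. None of the 50-base exon stretches of Eno3 occurs in a gene elsewhere. Pkm, the pyruvate kinase gene of non-liver tissues, was at 2301, 2352, 2631 and 2337 TPM. Its PKM1 and PKM2 splice forms were not separated by gene counts. Pkm shares 15.3% of its exon bases with another gene on the same strand, where reads were not counted. Of its 50-base exon stretches, 14.2% also occur in genes elsewhere.

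Ldha, the lactate dehydrogenase subunit that predominates in glycolytic tissue, was the highest of the 36 genes at 3544, 3682, 3708 and 3615 TPM, rank 17 of the 12114 genes at 1 TPM or more in every library. Ldhb, the subunit of heart and oxidative tissue, was at 66.9, 56.3, 59.1 and 56.0 TPM. Ldha exceeded Ldhb in all 4 libraries, by 5.91 ± 0.14 log2 units, and the mean levels differed 61.0-fold, or 95-fold with principal transcript lengths. Ldha made up 98.4% ± 0.162 of the pair. For lactate export, Slc16a3, the transporter MCT4 of lactate-releasing cells, was at 237, 267, 272 and 254 TPM and Slc16a1, MCT1, at 100, 125, 95.3 and 101 TPM. Slc16a3 was the higher of the pair in every library, by 1.28 ± 0.17 log2 units, and held 71.0% ± 2.49 of their sum. Bsg, or basigin, the chaperone that carries these transporters to the membrane, was at 779, 866, 883 and 841 TPM, above the sum of the transporters.

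**Figure D2:**
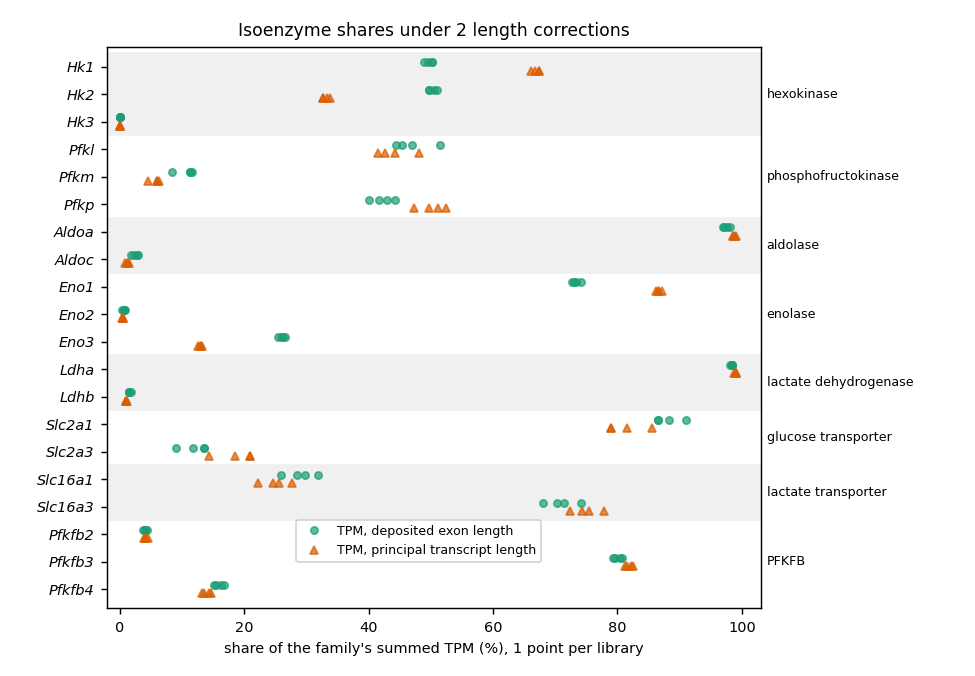
Share of each gene in the summed TPM of its isoenzyme family (%), 1 point per library, with deposited exon lengths (circles) and with principal transcript lengths (triangles). Hk1 and Hk2 coincide near 50% in circles and separate to 66.9 and 33.1% in triangles, Eno3 moves from 26.1 to 12.9%, and Ldha stays above 98% in both.

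The 7 pentose phosphate genes ranged from 53.2 TPM for Rpia to 462 TPM for Tkt on average. In the oxidative arm, which makes NADPH, G6pdx, the entry enzyme, was at 109, 113, 110 and 118 TPM, Pgls at 130, 115, 139 and 120 TPM and Pgd at 119, 114, 110 and 120 TPM. The 3 genes lay between 109 and 139 TPM in every library. With principal transcript lengths they separated, to 90.7 TPM for G6pdx, 370 TPM for Pgls and 234 TPM for Pgd, and 20.6% of the exon bases of Pgls overlap another gene on its strand. In the non-oxidative arm, which interconverts sugars and returns them to glycolysis, Tkt, the transketolase, was at 464, 438, 480 and 468 TPM and Taldo1, the transaldolase, at 247, 228, 238 and 235 TPM. Rpia and Rpe, which act on ribulose 5-phosphate, were at 47.9 to 55.6 and 48.4 to 57.5 TPM, the lowest of the 7 genes in every library with deposited lengths; with principal transcript lengths Rpia was at 108 TPM, above G6pdx, and Rpe at 42.8 TPM.

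Summed over isoenzymes, lactate dehydrogenase had the highest level of any reaction, 3697 ± 69.9 TPM, followed by pyruvate kinase at 2405 ± 152 TPM. Aldolase at 2088 ± 191, Gapdh at 2012 ± 102, enolase at 2012 ± 91.6 and triose phosphate isomerase at 1889 ± 75.5 TPM overlapped their neighbours in this order within the SD over libraries. Phosphoglycerate kinase came next at 912 ± 68.1 TPM. Hexokinase at 319 ± 13.8, phosphofructokinase at 520 ± 29.2 and phosphoglycerate mutase at 259 ± 10.5 TPM were the lowest enzymes of glycolysis. The levels of Pgk1, Pgam1, Eno1, Gapdh, Pkm and Ldhb are limited here too by the sequence they share with other genes. With principal transcript lengths lactate dehydrogenase remained the highest, at 4782 TPM, but Gapdh, at 4065 TPM, and aldolase, at 3560 TPM, exceeded pyruvate kinase, at 3434 TPM.

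**Figure D3:**
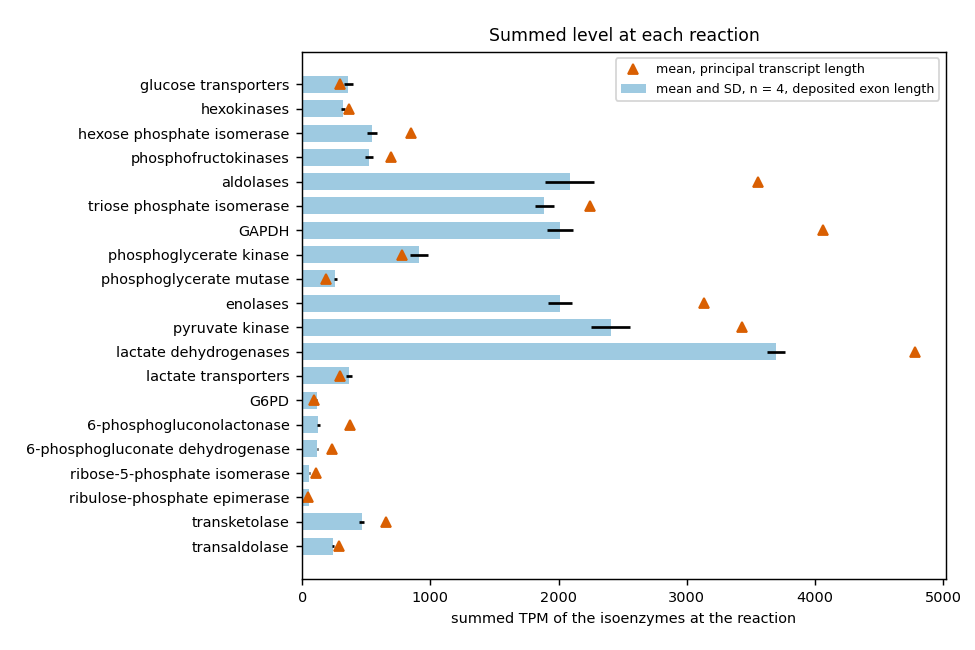
Summed TPM of the isoenzymes at each reaction, as bars from 0 with the SD over 4 libraries in black, and the mean with principal transcript lengths as triangles. Lactate dehydrogenase is the longest bar at 3697 TPM, and the highest pentose phosphate reaction is transketolase at 462 TPM.

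With a single group, a test across all genes can ask only which genes varied between the libraries beyond what genes of similar abundance do. Counts were fitted with edgeR, and a gene was called when the deviance from a constant level exceeded the trended dispersion at a Benjamini-Hochberg adjusted p under 0.05 over all 13478 genes tested. Of all genes tested, 51 were called, or 0.378%. Of the 35 pathway genes tested (Hk3 was too low), 2 were called, or 5.71%: Slc2a3 and Aldoc. Besides these, Pfkm and Eno2 were among the 4 of 35 pathway genes with an unadjusted edgeR p under 0.05, against 805 of all 13478 genes tested. The other 31 did not pass even unadjusted. The median SD of log2 CPM (counts scaled to the library by TMM factors) over the 4 libraries was 0.09 for the 35 genes and 0.14 for all genes tested.

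Slc2a3 (chr6:122727809-122801640, mm10, minus strand) had 2968, 8569, 10798 and 3024 counts in replicates 1 to 4. Against its own mean in log2 CPM, replicate 1 was at -0.55, replicate 2 at 0.31, replicate 3 at 0.27 and replicate 4 at -0.03. Its SD was 0.40 log2 units and its adjusted p in edgeR was 1.86e-05. Aldoc (chr11:78322968-78327781, plus strand) had 1671, 4326, 6504 and 1577 counts and deviated by -0.50, 0.19, 0.41 and -0.10 log2 units in replicates 1 to 4. Its SD was 0.40 log2 units and its adjusted p in edgeR was 3.73e-04. In both genes replicate 1 was the lowest library and replicates 2 and 3 the highest. Pfkm and Eno2, with SDs of 0.27 and 0.38 log2 units, were lowest in replicate 1 as well, at -0.40 and -0.56, and had adjusted edgeR p-values of 0.24 and 0.275. Slc2a3 and Aldoc differ from the abundant members of their families in this: the SD was 0.09 log2 units for Slc2a1 and 0.14 for Aldoa, with adjusted p-values in edgeR near 1.

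Both calls depended on replicate 1. Without it, the adjusted edgeR p was 0.955 for Slc2a3 and 0.676 for Aldoc. Then 0 of 35 pathway genes were called, against 0.121% of all genes. Of the 35, 4 had an unadjusted edgeR p under 0.05, and the share of all genes at that threshold is not given for this setting. Without replicate 3, Slc2a3 alone was called (0.173% of all genes), and Aldoc was at an adjusted edgeR p of 0.224. Without replicate 2, Pfkm joined the pair at an adjusted edgeR p of 0.0486 (0.42% of all genes called). Without replicate 4 the same pair was called, against 0.237% of all genes. With all 4 libraries, Slc2a3 and Aldoc were also called without a count filter (0.17% of all genes), at a mean of 1 CPM or more (0.561%) and with DESeq2 size factors and dispersions (0.453%), whereas limma called Slc2a3 alone (0.111%). Replicate 1 was also the library with the highest Gm42418 and Malat1, and the part of that in these results was not tested. Over all genes, 19 of 13478, or 0.141%, were called and lowest in replicate 1.

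**Figure D4:**
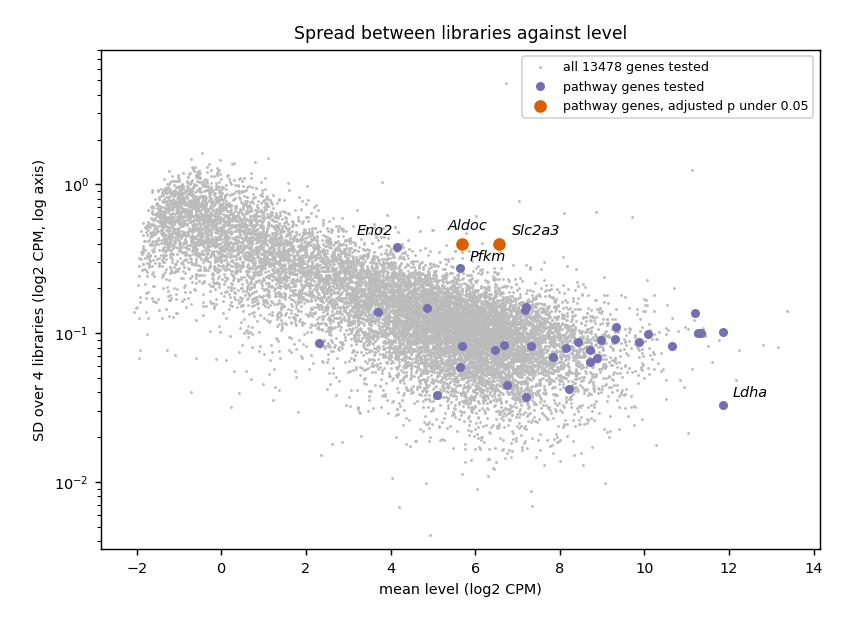
SD over 4 libraries of log2 CPM (log axis) against the mean log2 CPM for all 13478 genes tested (grey), with the 35 pathway genes in purple and those called in orange. Slc2a3 and Aldoc lie above the cloud at their abundance, and Ldha, with an SD of 0.03, lies low in it at the highest level.

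Without a test, the direction of deviation was uneven over libraries. In log2 CPM, replicates 1 to 4 were the lowest library for 13, 14, 4 and 4 of the 35 genes, against 30.1, 28.9, 19.9 and 21.1% of all genes tested. They were the highest library for 3, 10, 17 and 5 of the 35, against 30.3, 28.2, 21 and 20.6% of all genes tested. The highest library was thus replicate 3 for 48.6% of the 35 genes and replicate 1 for 8.57%. On the TPM scale 18 were lowest in replicate 1, against 36.5% of all genes, and 15 highest in replicate 3, against 16.6%. These genes share libraries and pathway, so the counts describe these 4 libraries only. Ldha varied least of the 35, with an SD of 0.03 log2 units, and its deviations were 0.00, -0.03, 0.05 and -0.02 in replicates 1 to 4.

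A list of 15 hypoxia response genes outside the pathway, such as Bnip3, a mitophagy receptor, Ero1l, an oxidase of the endoplasmic reticulum, and Ndrg1, was set beside these. All 15 were at 1 TPM or more in every library, against 23.9% of all 50600 genes. The same edgeR test called 3, against 0.378% of all genes tested: Bnip3 at an adjusted p of 6.78e-04, Ero1l at 0.00697 and Ndrg1 at 0.0274. Bnip3 was at 94.6, 178, 143 and 143 TPM, Ero1l at 144, 263, 196 and 207 TPM and Ndrg1 at 42.7, 70.7, 63.3 and 59.7 TPM in replicates 1 to 4. Like Slc2a3 and Aldoc, all 3 were lowest in replicate 1. Of the 15 genes on the list, 9 were lowest there in log2 CPM, against 30.1% of all genes tested. The list was chosen with earlier results of these data known, so its counts are a description and no independent support. The median deviation of the list was -0.13, 0.13, 0.04 and 0.04 log2 units in replicates 1 to 4, against -0.03, 0.01, 0.07 and -0.01 for the 35 pathway genes and 0.00 in each library for all genes tested. Mif, the cytokine and a member of the same list, was highest in replicate 1 instead, at 1909 TPM against 1551 to 1899 TPM in the others.

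**Figure D5:**
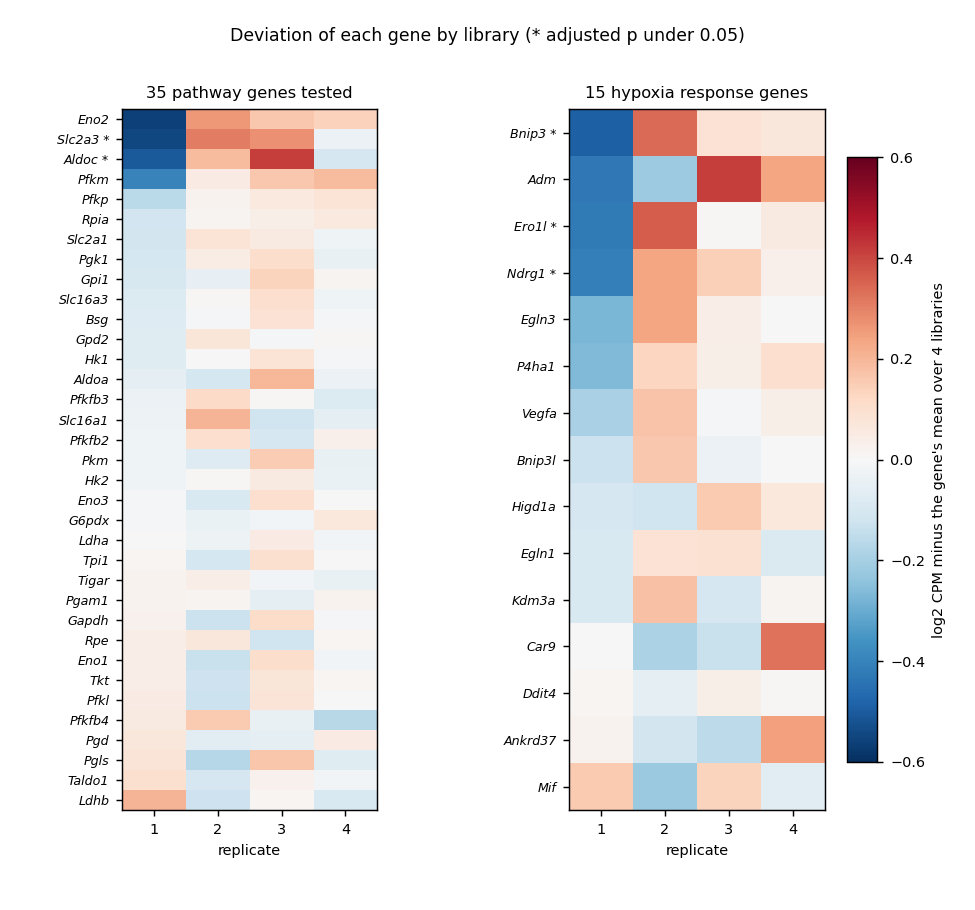
Deviation of each gene from its own mean over 4 libraries, in log2 CPM, for the 35 pathway genes tested (left) and the 15 hypoxia response genes (right), with an asterisk at genes with an adjusted p under 0.05. Eno2, Slc2a3, Aldoc and Pfkm are at -0.40 or below in replicate 1, as Bnip3, Adm, Ero1l and Ndrg1 are among the hypoxia response genes.

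The promoters of the pathway genes were described by motif letters in the 250 bases before each RefSeq start (GRCm38.p6). The core ACGTG, with GCGTG the core of the HIF-1 site, was present on either strand in 14 of the 34 genes that matched the table (41.2%), against 18.5% of all 27025 genes and 25.9% of the 8855 genes expressed in every library. GCGTG was present in 22 of 34 (64.7%), against 30.9% of all genes and 51.5% of expressed ones, and CACGTG, the E-box, in 5 of 34 (14.7%), against 6.86 and 10.1%. ACGTG lies within every CACGTG and was counted on each strand there. A gene counted if any of its windows held the motif, and genes differ in their number of starts. Per window, ACGTG was in 36% of the 50 windows of the pathway genes, against 16.6% of all 32851 windows. The shares were 54 against 28.2% for GCGTG and 10 against 6.02% for CACGTG. Slc2a3 and Bsg are not matched. The 3 windows below are printed because they belong to the lactate dehydrogenase pair, whose members differed 61.0-fold in level, and to a kinase named among textbook HIF-1 targets; each is written 5′ to 3′ on the gene's strand, ends at the base before the start, holds no annotated exon base of the gene, and has ACGTG or GCGTG, on either strand, in capitals.
Ldha: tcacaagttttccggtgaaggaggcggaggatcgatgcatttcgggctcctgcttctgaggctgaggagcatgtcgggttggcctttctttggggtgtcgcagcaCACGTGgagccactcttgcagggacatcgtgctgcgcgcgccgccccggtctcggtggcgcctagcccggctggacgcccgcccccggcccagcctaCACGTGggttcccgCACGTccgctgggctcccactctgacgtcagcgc
Ldhb: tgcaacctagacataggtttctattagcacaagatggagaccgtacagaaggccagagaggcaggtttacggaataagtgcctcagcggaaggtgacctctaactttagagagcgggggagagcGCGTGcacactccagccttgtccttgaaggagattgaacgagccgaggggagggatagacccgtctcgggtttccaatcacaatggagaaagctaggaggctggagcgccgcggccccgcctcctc
Pgk1: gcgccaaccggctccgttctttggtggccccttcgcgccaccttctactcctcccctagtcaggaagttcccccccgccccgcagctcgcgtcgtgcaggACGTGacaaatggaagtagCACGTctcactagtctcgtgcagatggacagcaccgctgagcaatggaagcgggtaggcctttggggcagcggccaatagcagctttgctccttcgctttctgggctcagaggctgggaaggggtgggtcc
The table holds 2 starts for Ldha, and the window of the other, downstream one has no ACGTG and 1 GCGTG. The printed Ldha window (chr7:46845554-46845803, plus strand) held 5 matches to ACGTG, counting 2 CACGTG stretches on both strands and 1 more match nearer to the start; 0.134% of all windows hold that many or more. The Ldhb window (chr6:142507958-142508207, minus strand) held none and a single GCGTG, and the Pgk1 window (chrX:106186850-106187099, plus strand) held 2 matches to ACGTG. A match is a description of the letters and says nothing of binding in these cells.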

How the data were processed

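RNA sequencing, titled total RNA in the labels, was done on 4 libraries of mouse regulatory T cells, analysed as 1 group. The authors deposited raw, unscaled counts (read pairs for each gene); featureCounts (1.4.6-p4) ran on STAR alignments with paired, reverse-strand counting of exons of GENCODE M13, per the file headers, and the labels name mm10. The recorded command counts neither multimapping reads nor reads over several genes, per the file headers. The deposited exon length of each gene, the union of its exons, was used to compute TPM. Of 50600 gene IDs, 50376 matched GENCODE M21 symbols; the 224 others held at most 0.0103% of counts. Depth was 32648138 to 94983494 counts, so 3 counts correspond to 0.0316 to 0.0919 CPM.

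The excess variation test used edgeR 4.0.16 in R 4.3.3 (TMM, filterByExpr with a minimum of 10 counts, an intercept-only fit, trended dispersion and a goodness-of-fit test on the deviance, one-sided); it was tested on simulated data of 13293 genes, where it recovered 22.4% of genes changed 1.5-fold, 82.1% of those changed 2-fold and 100% of those changed 4-fold in 1 library, and called 4 of 13093 unchanged genes. In that simulation every gene had the dispersion of the fitted trend, and the changed genes were drawn from the more abundant ones. It cannot show how often genes with a larger dispersion of their own are called. Isoenzyme pairs were compared by an exact sign-flip permutation test on log2(TPM + 1), adjusted over 16 pairs. Alternatives were DESeq2 1.42.0, limma 3.58.1, other filters and scalings, each library left out, and principal transcript lengths of GENCODE M21, the last chosen after seeing the data. All 36 genes were named; of the other lists, genes called and up to 6 with the highest mean TPM. The genes and lists were chosen with earlier results of these data known.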

Additional observations from a re-analysis of the deposited data

Results flagged for a closer look

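Pkm, the pyruvate kinase gene, was at 2631 TPM in replicate 3, apart from the 2301, 2352 and 2337 TPM of replicates 1, 2 and 4. The gap to the nearest library was 0.846 of the whole range, above Dixon's 95% critical value for 4 samples, in the only case among 44 values examined; chance flags about 1 in 20. Replicate 3 is also the library with the most counts, and the adjusted p of Pkm in edgeR was near 1.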

How the results depend on the processing

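The number of genes called for excess variation was 51 in edgeR and 15 in limma on log2 CPM, and leaving out 1 library in turn gave 17 (without replicate 1) to 56 (without replicate 2) in edgeR. Of the 2 pathway genes, limma called 1, Slc2a3, with Aldoc at an adjusted p of 0.101, and leaving out a library gave 0 to 3. DESeq2 size factors, DESeq2 dispersions and both other count filters kept both calls. The share of TPM held by the 36 genes was 2.07% with mitochondrial, ribosomal and short genes left out and 2.73% with principal transcript lengths. The difference Hk1 minus Hk2 reversed to 0.50 log2 units in CPM and 1.01 with principal transcript lengths, and Pfkl minus Pfkp to -0.34 and -0.19. The other 14 pairs kept their direction under every alternative run. No pairing of libraries between groups was possible because they form a single group, whereas isoenzymes were compared within each library.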

Other observations

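Isoenzymes outside the 36 genes were mostly silent. Of 14 other glycolytic isoenzymes, 4 were at 1 TPM or more in every library: Adpgk, an ADP-dependent glucokinase, at 59.1 ± 3.46 TPM (SD, n = 4), Bpgm, the bisphosphoglycerate mutase, at 16.9 ± 0.277, Pfkfb1 at 8.40 ± 1.38 and Eno1b at 2.78 ± 0.551 TPM, the last sharing 50-base stretches with Eno1. Gapdhs, Pgk2, Pgam2, Pklr and Ldhc, forms used by other tissues, had no count in any library. Of 11 other genes listed with the sugar and lactate transporters, 4 were expressed. Emb, or embigin, which is not itself a transporter, was the highest at 116 ± 9.14 TPM. Slc2a6 at 40.4 ± 2.61 and Slc2a8 at 33.2 ± 3.22 TPM followed.

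Among gluconeogenic genes, G6pc, Fbp1 and Fbp2 had no count in any library and Pck1 was at 0.069 TPM, while the mitochondrial Pck2 was at 123 ± 2.55 TPM and G6pc3, the ubiquitous glucose 6-phosphatase, at 99.5 ± 5.87 TPM. Genes of sugar entry and glycogen were present, with Galk1, galactokinase, at 528 ± 40.3, Pgm1 at 155 ± 19.4 and the phosphorylase Pygb at 119 ± 3.46 TPM. Prps1 and Prps2, which make PRPP from ribose phosphate, were at 278 ± 31.5 and 74.7 ± 9.91 TPM, and Tktl1 and Tktl2 had no count. Among redox shuttle genes, Mdh2 was at 456 ± 31.5 and Mdh1 at 336 ± 22.8 TPM. At the fate of pyruvate, Pdha1 was at 209 ± 15.1 and Pdhb at 170 ± 2.64 TPM. Pdk4, a kinase that blocks pyruvate dehydrogenase, was at 0.056 TPM against 92.7 ± 14.9 for Pdk1. Of the 52 genes of these lists that were tested, 0 were called by edgeR, limma or with DESeq2 dispersions. Among all genes tested the shares called were 0.378, 0.111 and 0.453%, so 0 of 52 is near the share over all genes. In edgeR 4 of the 52 had an unadjusted p under 0.05 (Gbe1, Pygl, Pdk1 and Pcx), against 805 of all 13478 genes tested. These 4 and the genes at or near 0 in this paragraph were named after their values were seen.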
